A study of Arabidopsis thaliana with 30 samples.

Results

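Sieve elements are the conducting cells of the phloem, and in the root tip of Arabidopsis thaliana the protophloem sieve elements mature within the meristem by thickening their walls and then losing the nucleus and most organelles. The genes described here were abundant in sorted developing sieve element cells and lower in such cells after PLT2 had been induced in them. They were chosen on those values. The rule asked for a mean of at least 50 CPM (a gene's count scaled to the total of its library) in the 3 DMSO libraries, for every estradiol value to lie below every DMSO value, and for a mean log2(CPM + 1) difference, estradiol minus DMSO, of at most -2. It was met by 73 of the 3985 genes at or above 50 CPM, or 1.83%, and 4 of these were left out by name, which leaves 69 members among 33602 genes. PLT2 is a PLETHORA transcription factor that keeps cells of the root stem cell niche undifferentiated and dividing, and its level normally declines before protophloem cells mature.

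The sorted-cell libraries, 3 per group, came from 5-day-old seedlings of a cross between a pCALS7::H2B-RFP reporter and pNAC86(XVE)::PLT2-3YFP, so both groups carried both constructs and differed in 6 h of 10 µM estradiol or its solvent DMSO. Both promoters are known from developing sieve elements, which limits the comparison to the cells they mark. Estradiol cells were sorted as RFP and YFP positive and DMSO cells as RFP positive, so the sort gate, estradiol itself and the induction cannot be told apart. A pear table and a ZAT table, not used by the rule, were read for the same genes. In the pear table, whole root meristems of the pear sextuple mutant, named for the PEAR Dof transcription factors of the early phloem, stand against Col-0. In the ZAT table, Col-0 seedlings carried pWOL[xve]::ZAT14like-mTurq or pWOL[xve]::ZAT14-mTurq, which express C2H2 zinc finger proteins under a vascular promoter, and whole meristems were taken with DMSO or after 10 h or 14 h of 5 µM estradiol. Every one of these groups had 3 libraries, all from 5-day-old seedlings, with meristems of many seedlings pooled.

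Total counts of the sorted-cell libraries lay between 31426740 and 44837397. Genes with any count numbered 28426, 21340 and 27617 in DMSO libraries 1, 2 and 4, and 29277 to 30143 in estradiol libraries. TMM scaling factors were 1.007, 0.717 and 0.784 in DMSO libraries 1, 2 and 4, and 1.15 to 1.28 in estradiol libraries. The part of these unlike libraries in the CPM differences was not tested. PLT2 itself had 20093, 70730 and 25923 CPM in estradiol libraries 1, 2 and 3, against 7.10, 4.93 and 8.41 CPM in DMSO libraries 1, 2 and 4. Summed over a list of 15 genes of sieve element differentiation and enucleation, the level per kilobase of exon was 2625 to 4886 in estradiol and 5279.6 to 9357 in DMSO libraries, with RTM1 at 0 in all 6. In this list 8 genes had every estradiol value below every DMSO value and 1, CHER1, had every one above. The median log2 difference was -1.04, with CHER1 at 2.14 and CALS7 at 0.10. Protophloem specification genes summed to 534 to 742 in estradiol and 846 to 998 in DMSO libraries, a sum carried by BRX, at a mean of 183 in estradiol and 405 in DMSO libraries, and by the member CLE26. Of these 15 genes 6 had every estradiol value above every DMSO value and 2 had every one below, with a median log2 difference of 0.25. The same sum was 73.9 to 117 in estradiol and 29.0 to 55.5 in DMSO libraries for 15 mitosis genes, and 92.6 to 227 in estradiol and 238 to 343 in DMSO libraries for 10 companion cell genes. Most of the companion cell sum was AHA3, at a mean of 98.8 in estradiol and 254 in DMSO libraries, while the median difference of that list was 0.59, with 2 genes wholly higher and 1 wholly lower in estradiol. The sums of the sieve element, protophloem, mitosis and companion cell lists did not overlap between groups, and their part in the members' levels was not tested. Markers of the xylem, endodermis, epidermis, root cap and procambium each summed to at most 95.9 in every library, and their groups overlapped. Wound and protoplasting stress markers were highest in DMSO library 1, at 997, against 336 and 144 in DMSO libraries 2 and 4, and had 92.6 to 378 in estradiol libraries. Their part too was not tested. Of the 108 genes on 12 marker lists 101 were tested by edgeR's quasi-likelihood test. SEOR1, a protein of the phloem filaments, fell by 2.78 on the log2 scale (edgeR adjusted p = 0.048). PP2-A9, a phloem lectin, fell by 3.85 (edgeR adjusted p = 0.048). Both met the rule, at -2.24 and -3.25 on library totals, and were left out by name, so these tests reuse its values and lend no support. XCP2, a xylem protease, fell by 2.29 (edgeR adjusted p = 0.049) and PLT2 rose by 11.9 (edgeR adjusted p = 0.017). PLT2 is the induced gene and its YFP fusion was sorted for, so its call was fixed by the design. Of all 24673 genes 0.657% were called (0.397% lower and 0.259% higher). Only XCP2 is left among the 4 calls, so their number is not read against that share. Without any 1 of DMSO libraries 2 and 4 and estradiol libraries 1 and 3 the edgeR count of 4 list genes was 0, without estradiol library 2 it was 1, and without DMSO library 1 it was 18. By DESeq2 with all 6 libraries 26 list genes passed. In the ZAT lines the induced genes checked the labels: ZAT14-like had 5.46 to 6.59 FPKM (fragments scaled to gene length and library size) with DMSO, 48.2 to 59.8 at 10 h and 59.5 to 79.8 at 14 h in its own line, and ZAT14 had 13.9 to 16.0, 41.6 to 51.6 and 63.9 to 71.4 FPKM in its own. With DMSO in the other line, ZAT14-like had 0.461 to 0.995 FPKM and ZAT14 had 8.18 to 9.45 FPKM. Each gene was thus already higher in its own line with DMSO, the baseline of the ZAT contrasts. The reason was not tested. In the pear mutant 4 of the 6 PEAR Dof genes were called lower and 2 higher, and the labels give no alleles.

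**Figure D1:**
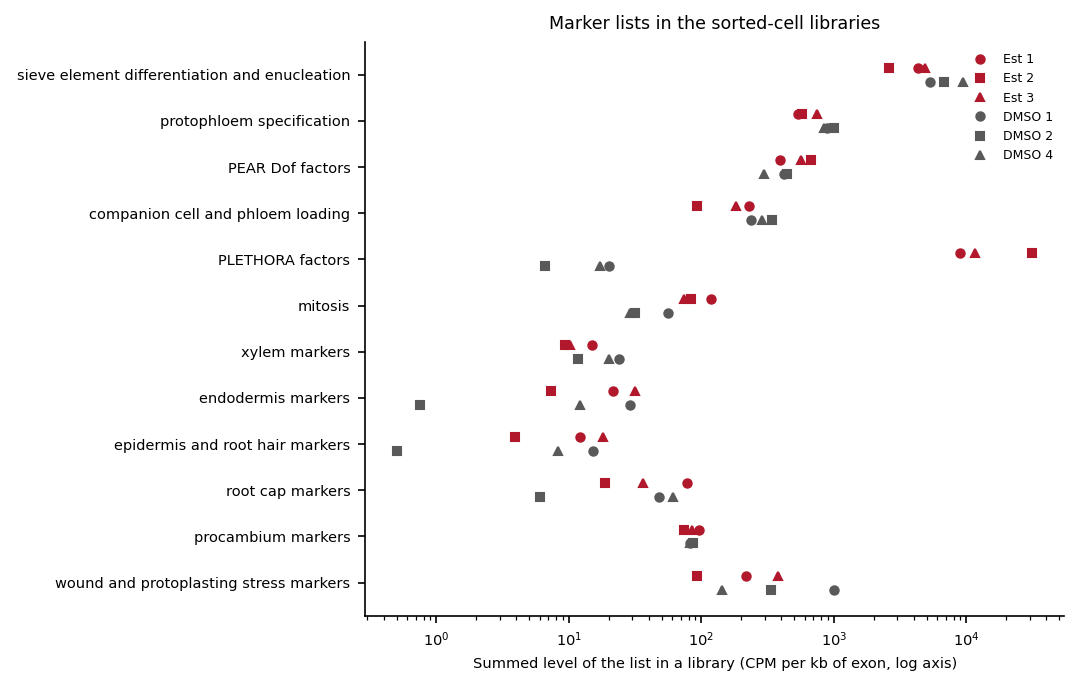
Summed level of each marker list in each sorted-cell library, as CPM per kilobase of exon on a log axis, with estradiol libraries in red above DMSO libraries in grey. The sieve element list lies highest of the cell type lists in every library, its estradiol values (2625 to 4886) below its DMSO values (5279.6 to 9357), and the PLETHORA list is raised in estradiol by PLT2 itself.

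The members were lower in estradiol than in DMSO cells by a median of 2.45 on the log2 scale, from -4.66 for AT1G11500 to -2.005 for EXLA1. Among the lowest were also AT1G56555 at -3.15, AT5G04700 at -3.13, SRO2 at -3.03 and AT5G01030 at -2.77. The median over all genes at or above 50 CPM was -0.02, and 20.2% of those genes had every estradiol value below every DMSO value. These differences selected the genes and carry no test. Estradiol library 2, the one with the most PLT2, held the lowest of the 3 estradiol values in 66 of the 69 members, the exceptions being SRO2, RLP29 and AT4G39700. DMSO library 1 held the lowest DMSO value in 53 members and DMSO library 4 the highest in 44. The rule used these values and the same ranks were not counted over all genes. They are therefore not read as a trait of the members. PLT2 took 7.07% of the counts of estradiol library 2, and its part in these ranks was not tested. Together the members took 0.571%, 0.254% and 0.5998% of all counts in estradiol libraries 1, 2 and 3, against 1.71%, 2.63% and 3.24% in DMSO libraries 1, 2 and 4. Members were therefore spread unevenly within both groups, and without estradiol library 2 their median difference was -1.91, with 30 of the 69 still at or below -2. By the same rule, 34 genes qualified without estradiol library 2 and 110 without DMSO library 1, and 205 qualified with library totals scaled by TMM factors, under which the median of all genes at or above 50 CPM was -0.57 and that of the members -2.99.

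Inside the threshold on the difference the nearest members were AT1G55760 at -2.01, RTM2 at -2.01 and EXLA1 at -2.005, and just outside it lay SS3, HT1 and NTRB, each at -1.99. At the threshold on level, RLP29 had 51.4 CPM in DMSO cells, AT5G22870 and AT2G47360 each 52.6 CPM, and AT4G31470, AT3G13980 and AT2G37610 just missed it with 48.3, 48.7 and 48.7 CPM. LEP, MAP70-5 and MYB4 met the other conditions with overlapping groups. The narrowest gap among members was that of FAF3, whose highest estradiol value was 20.9 CPM and whose lowest DMSO value was 26.2 CPM. FAF3, TPPJ, PFA-DSP1, AT1G26450, AT5G50610 and AT5G50710 were the 6 members with their highest DMSO value in library 1. Wound markers were also highest there, but a link was not tested and the share of all genes highest there was not counted.

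**Figure D2:**
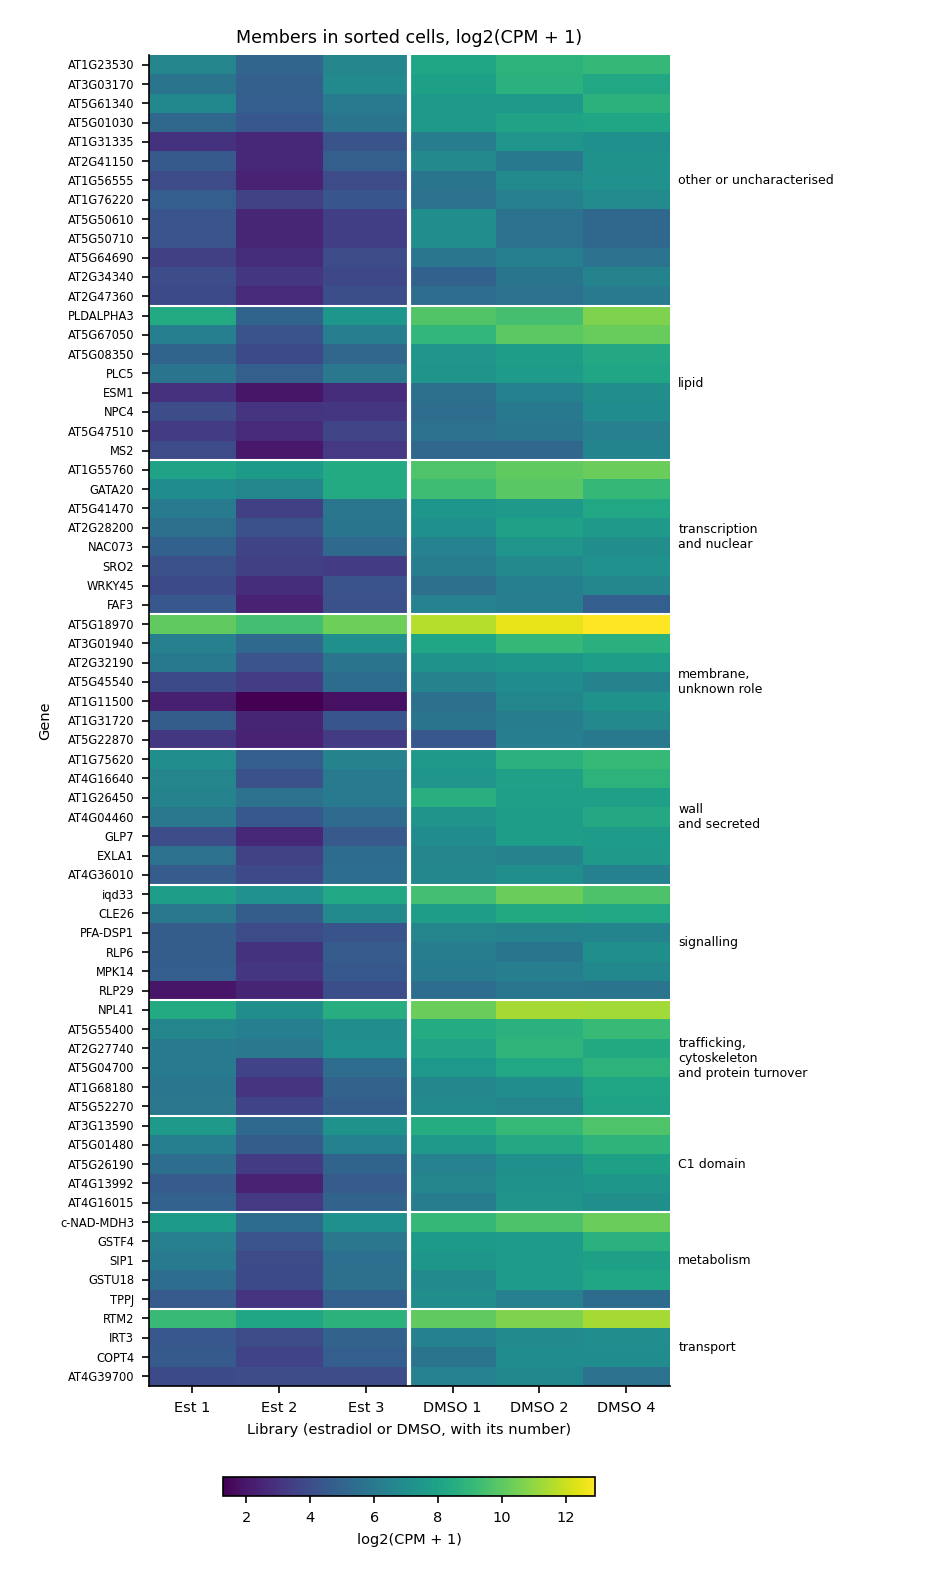
Levels of the 69 members as log2(CPM + 1), with 1 row per gene and 1 column per library, estradiol libraries on the left and DMSO libraries on the right, grouped by role. Estradiol library 2 holds the lowest estradiol value in 66 of the 69 rows, and the DMSO columns differ among themselves, with library 4 the highest in 44 rows.

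All 69 members are annotated as protein coding. On a scale per exon length they ranked high in sorted DMSO cells, at a median percentile of 97.6 of all genes, and at 81.1 in estradiol cells. Both ranks follow from the rule's conditions on level and difference and are not read as a trait of the members. In Col-0 whole meristems, from a separately normalized table in FPKM, their median percentile was 46.4. There, 37 of the 69 had a Col-0 mean under 1 FPKM, against 5.38% of the genes at or above 50 CPM in DMSO cells. The members' median Col-0 mean was 0.714 FPKM and that of all genes at or above 50 CPM was 28.1 FPKM. Lipid enzymes, C1 domain proteins, secreted proteins, transcription factors and signalling proteins were all among the members, in 10 role groups drawn up after the values were seen.

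Of the lipid-related members, AT5G67050, an alpha/beta hydrolase, had 77.4, 18.4 and 75.0 CPM in estradiol libraries, against 511, 1003 and 1199 CPM in DMSO libraries. ESM1, a GDSL-type hydrolase known as a modifier of glucosinolate breakdown, had 6.65, 3.01 and 5.95 CPM in estradiol libraries, against 46.7, 84.1 and 131 CPM in DMSO libraries. Both genes thus had a wide gap between groups, with means 15.9 and 16.8 times lower in estradiol cells. PLDALPHA3, a phospholipase D that releases phosphatidic acid from membrane lipids, had 333, 31.2 and 167 CPM in estradiol libraries, against 865, 715 and 1614 CPM in DMSO libraries. NPC4, a phospholipase C without strict head group preference, had 15.1, 7.22 and 7.67 CPM in estradiol libraries, against 42.2, 62.2 and 119.7 CPM in DMSO libraries. PLC5, which cleaves phosphoinositides, had 53.6, 26.7 and 60.2 CPM in estradiol libraries, against 158, 205 and 287 CPM in DMSO libraries. These 3 are the phospholipases among the members, out of 12 annotated phospholipase genes at or above 50 CPM. Over all genes at that level 1.83% met the rule. This family was named because several members share it, so the count is not read as a result. The other phospholipase genes at that level ran from -1.28 for PLC2 to 0.62 for AT1G61850. The other lipid members were AT5G08350, a GRAM domain protein, AT5G47510, a Sec14-type phosphatidylinositol transfer protein, and MS2, a fatty acyl reductase known from the pollen wall, at -3.11, -2.68 and -2.52.

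C1 domains are cysteine- and histidine-rich folds known in animal proteins for binding diacylglycerol, and the function of most plant C1 proteins is open. The family has 141 annotated genes, of which 8 reached 50 CPM in DMSO cells, and 5 of the 8 were members. Over all genes at that level 1.83% met the rule. The family was named because several members share it, so this count is not read as a result. AT3G13590 had 189, 37.0 and 153 CPM in estradiol libraries, against 356, 531 and 849 CPM in DMSO libraries. AT4G13992 had the lowest difference of the family, with 24.4, 4.31 and 23.4 CPM in estradiol libraries, against 94.8, 152 and 171 CPM in DMSO libraries. AT5G01480, AT5G26190 and AT4G16015 lay between, at -2.45, -2.52 and -2.47. The other 3 of the 8 also had lower means in estradiol cells, at -1.05 for AT1G34480, -0.89 for AT2G16050 and -0.997 for AT5G39471.

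Among membrane proteins without an assigned role, AT1G11500 (DUF1218, TAIR10.1 chromosome 1, 3870679 to 3871702) had the widest gap of any member, with 3.93, 1.42 and 2.498 CPM in estradiol libraries, against 46.2, 97.5 and 145 CPM in DMSO libraries. AT5G18970 encodes an AWPM-19-like membrane protein, a family in which a rice member carries abscisic acid into cells. It stood highest of the members on the per-length scale, at 915 in estradiol and 4985 in DMSO cells, with 1089, 698 and 1292 CPM in estradiol libraries and 3125, 5931 and 7723 CPM in DMSO libraries. AT5G18970 was thus among the most abundant transcripts of DMSO cells, and it remained abundant in estradiol cells.

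Wall and secreted members included GLP7, a germin-like protein, with 15.2, 5.14 and 22.3 CPM in estradiol libraries, against 119.8, 219.7 and 199.7 CPM in DMSO libraries. AT1G26450, an X8 domain protein of a class in which some members bind callose at plasmodesmata, had 87.6, 49.0 and 67.3 CPM in estradiol libraries, against 391, 227 and 229.9 CPM in DMSO libraries. The aspartyl protease AT4G04460, the matrixin-type metalloprotease AT4G16640, the glyoxal oxidase AT1G75620, the thaumatin-like AT4G36010 and EXLA1, an expansin-like protein, lay at -2.53, -2.42, -2.39, -2.04 and -2.005.

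In the signalling group, CLE26, a precursor of a CLE peptide that, when applied to roots, restrains protophloem differentiation, had 60.0, 25.1 and 114 CPM in estradiol libraries, against 225, 329 and 304 CPM in DMSO libraries. CLE26 was the only member that is also on a marker list, the list of protophloem specification. MPK14, a mitogen-activated protein kinase, had 26.0, 7.60 and 21.0 CPM in estradiol libraries, against 66.1, 76.0 and 105 CPM in DMSO libraries. The receptor-like proteins RLP29 and RLP6, the phosphatase PFA-DSP1 and iqd33, which carries a calmodulin-binding IQ motif, lay at -2.87, -2.24, -2.22 and -2.03. Among transcription factors, NAC073, known for a part in secondary wall formation, had 28.3, 11.7 and 37.7 CPM in estradiol libraries, against 86.1, 164 and 130.4 CPM in DMSO libraries. WRKY45, known from phosphate starvation and leaf senescence, had 14.1, 6.04 and 18.4 CPM in estradiol libraries, against 47.0, 78.2 and 101 CPM in DMSO libraries. GATA20, whose values did not follow the usual order of the DMSO libraries, had 122, 97.4 and 334 CPM in estradiol libraries, against 626, 974 and 527 CPM in DMSO libraries.

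RTM2, a protein with a small heat shock domain that restricts the long-distance movement of a potyvirus and is known from sieve elements, had 554, 285 and 431 CPM in estradiol libraries, against 1075, 1605 and 2592 CPM in DMSO libraries. Its levels did not meet between the groups, although they varied widely within DMSO. NPL41, annotated as NPL4-like, whose yeast counterpart works with CDC48 on ubiquitin-tagged proteins, had 334, 130.1 and 368 CPM in estradiol libraries, against 1204, 2567 and 2555 CPM in DMSO libraries. The metal transporters IRT3, of the ZIP family, and COPT4, of the copper transporter family, lay at -2.25 and -2.21. Of the metabolic members c-NAD-MDH3, a cytosolic malate dehydrogenase, lay at -2.94, the glutathione transferases GSTU18 and GSTF4 at -2.56 and -2.496, SIP1, related to raffinose metabolism, at -2.47 and the trehalose phosphate phosphatase TPPJ at -2.08. Of 13 members without a clear product, AT1G31335 had 6.77, 5.12 and 18.9 CPM in estradiol libraries, against 69.9, 162 and 137 CPM in DMSO libraries. AT5G50610 and AT5G50710 had the same values to 3 digits, 19.4, 4.83 and 9.70 CPM in estradiol libraries and 127, 48.0 and 34.7 CPM in DMSO libraries. Reads of these 2 genes may be shared between near-identical copies, so each is uncertain. The 5 members not otherwise named, AT1G68180, AT5G41470, AT5G45540, AT5G52270 and AT1G31720, lay between -2.62 and -2.37. On the chromosomes, AT1G23530 and SRO2 lie 3994 bases apart on chromosome 1 with 1 gene between them, and SIP1 and AT1G55760 lie 8093 bases apart with 2 genes between them.

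In the pear sextuple mutant the members went both ways. AT1G26450, RTM2 and CLE26 fell to near 0, and AT3G03170, AT2G34340 and COPT4 rose. Of the 69 members 34 had at least 1 FPKM in at least 3 libraries and were tested, 23 of them passed limma's test at an adjusted p under 0.05, with 12 lower and 11 higher, against 63.2% of the 17062 genes tested (18.6% lower and 44.6% higher). The members' share called is near that background. The 7 members that passed the filter only through Col-0, AT1G26450, RTM2, CLE26, PLDALPHA3, c-NAD-MDH3, FAF3 and AT2G27740, were all called lower. The 3 that passed only through the mutant, COPT4, ESM1 and SIP1, were all called higher. A gene that passes through 1 genotype alone had to differ, so the direction counts of tested members are not read further. With no filter all 23 were called again, among 41 members called. The median fold change was 0.03 over tested members and 0.21 over all genes tested. Rescaling the libraries to their median ratio moved the median of all genes to 0.00 and the share of all calls that were higher to 49.4%, against 70.5% without it, and then 15 members were called lower and 10 higher. In whole meristems, fewer sieve element cells and less RNA per cell cannot be told apart.

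The 3 deepest falls and the largest rise are shown with the 250 bases before the annotated gene start, since the PEAR factors are Dof proteins, whose binding sites share the core AAAAG. Sequences are RefSeq's, from build TAIR10.1, read 5′ to 3′ on the gene's strand, and capitals mark AAAAG or its complement CTTTT.
AT1G26450, chr1:9150251-9150500, minus strand: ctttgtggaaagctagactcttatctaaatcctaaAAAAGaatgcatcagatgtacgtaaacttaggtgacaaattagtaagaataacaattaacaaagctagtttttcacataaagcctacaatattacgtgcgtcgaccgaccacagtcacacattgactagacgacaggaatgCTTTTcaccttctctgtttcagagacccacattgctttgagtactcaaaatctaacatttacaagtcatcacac
RTM2, chr5:1426867-1427116, plus strand: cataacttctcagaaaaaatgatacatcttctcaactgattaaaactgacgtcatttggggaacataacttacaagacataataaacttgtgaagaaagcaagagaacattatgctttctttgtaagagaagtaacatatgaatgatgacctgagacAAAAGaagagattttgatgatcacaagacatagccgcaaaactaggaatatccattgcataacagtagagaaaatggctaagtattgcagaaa
CLE26, chr1:26354614-26354863, minus strand: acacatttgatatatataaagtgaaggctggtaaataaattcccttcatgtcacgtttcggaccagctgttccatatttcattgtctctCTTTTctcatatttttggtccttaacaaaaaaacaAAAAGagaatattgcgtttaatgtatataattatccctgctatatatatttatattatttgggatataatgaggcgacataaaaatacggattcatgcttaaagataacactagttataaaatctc
AT3G03170, chr3:731612-731861, plus strand: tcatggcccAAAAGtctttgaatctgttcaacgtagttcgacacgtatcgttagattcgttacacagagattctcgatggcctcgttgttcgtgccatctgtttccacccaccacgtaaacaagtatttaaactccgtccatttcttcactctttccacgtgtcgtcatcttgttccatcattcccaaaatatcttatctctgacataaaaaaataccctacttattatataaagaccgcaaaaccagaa
The window before AT1G26450 and that before CLE26 each held 2 matches over both strands, and those before RTM2 and AT3G03170 held 1 each. Over windows from 250 bases before to 50 after the start, AAAAG on either strand was found in 62 of the 69 members, or 89.9%, and in 86.6% of 27443 protein-coding genes. CACG, a core of many NAC sites, was found in 56.5% of members and 52.7% of all these genes. The longer tracheary element regulating cis-element, searched on both strands, was in none of the 69 members and in 0.4% of all promoters. AAAAG and CACG were about as frequent in members as in all promoters.

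AT1G26450 (minus strand of chromosome 1, 9148636 to 9150250) had 0.0977, 0 and 0 FPKM in mutant libraries 2, 3 and 4, against 23.4, 28.9 and 15.6 FPKM in Col-0 libraries 1, 2 and 4. Its log2 fold change was -4.48 ± 0.20 (SE, n = 3 each, limma adjusted p = 2.1e-06). RTM2 (plus strand of chromosome 5, 1427117 to 1428514) had 0.0434, 0.0923 and 0.0951 FPKM in the mutant, against 5.56, 4.94 and 4.97 FPKM in Col-0. RTM2 fell by 2.51 ± 0.11 on the log2 scale (limma adjusted p = 2.2e-06). CLE26 had 0, 0.160 and 0 FPKM in the mutant, against 4.07, 4.73 and 4.12 FPKM in Col-0, a fold change of -2.33 ± 0.13 (limma adjusted p = 4.6e-06). For these 3 genes every mutant library lay far below every Col-0 library. They passed the filter only through Col-0, which fixed this direction before the test. All fold changes here are on log2(FPKM + 1), which understates those of genes at a few FPKM or less.

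PLDALPHA3 had 0, 0 and 0.0156 FPKM in the mutant, against 1.17, 1.22 and 1.11 FPKM in Col-0. The membrane protein gene AT2G32190 had 0.537, 1.14 and 0.981 FPKM in the mutant, against 4.58, 4.72 and 4.66 FPKM in Col-0. AT3G01940, which encodes another predicted membrane protein, had 0.941, 1.001 and 0.172 FPKM in the mutant, against 2.75, 2.61 and 3.78 FPKM in Col-0. All 3 genes were called lower, by 1.11, 1.60 and 1.28 on the log2 scale, with no overlap between genotypes. For PLDALPHA3 the filter fixed this, since it passed only through Col-0. Further members called lower were c-NAD-MDH3, AT2G27740, FAF3, AT1G31335 and EXLA1, with fold changes of -1.07 to -0.54. Of these, c-NAD-MDH3, AT2G27740 and FAF3 also passed only through Col-0. AT5G08350, called lower by 0.68, had overlapping genotypes and lost its call without mutant library 2 or 4 or Col-0 library 1 or 2 (fold changes -0.59, -0.62, -0.53 and -0.58). Its level also differed between the tables, with 13.3 to 23.7 FPKM in Col-0 here and at most 0.0873 FPKM in the ZAT libraries. The reason was not tested, so its values are uncertain.

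AT3G03170, a gene of unknown function (plus strand of chromosome 3, 731862 to 732914), had 67.0, 67.3 and 66.5 FPKM in the mutant, against 17.7, 16.4 and 21.6 FPKM in Col-0, a rise of 1.80 ± 0.10 (limma adjusted p = 4.8e-06). AT2G34340, annotated as a senescence regulator, had 45.4, 49.4 and 47.9 FPKM in the mutant, against 10.0, 21.0 and 15.6 FPKM in Col-0. COPT4 had 3.84, 3.03 and 1.60 FPKM in the mutant, against 0.0803, 0.305 and 0.312 FPKM in Col-0. These genes, lower in estradiol-treated sieve element cells, were thus higher in the mutant, with no overlap between genotypes. For COPT4 the filter fixed this, since it passed only through the mutant, as did ESM1 and SIP1. ESM1 rose by 1.34, with 2.09, 2.33 and 1.63 FPKM in the mutant, against 0.233, 0.131 and 0.201 FPKM in Col-0. SIP1, AT5G61340, GATA20, AT2G28200, AT5G55400 and NPL41 rose by 0.86, 0.84, 0.80, 0.77, 0.51 and 0.45. AT2G41150 rose by 0.38, and this call was lost after median-ratio rescaling, where its fold change was 0.16 (adjusted p = 0.081).

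**Figure D3:**
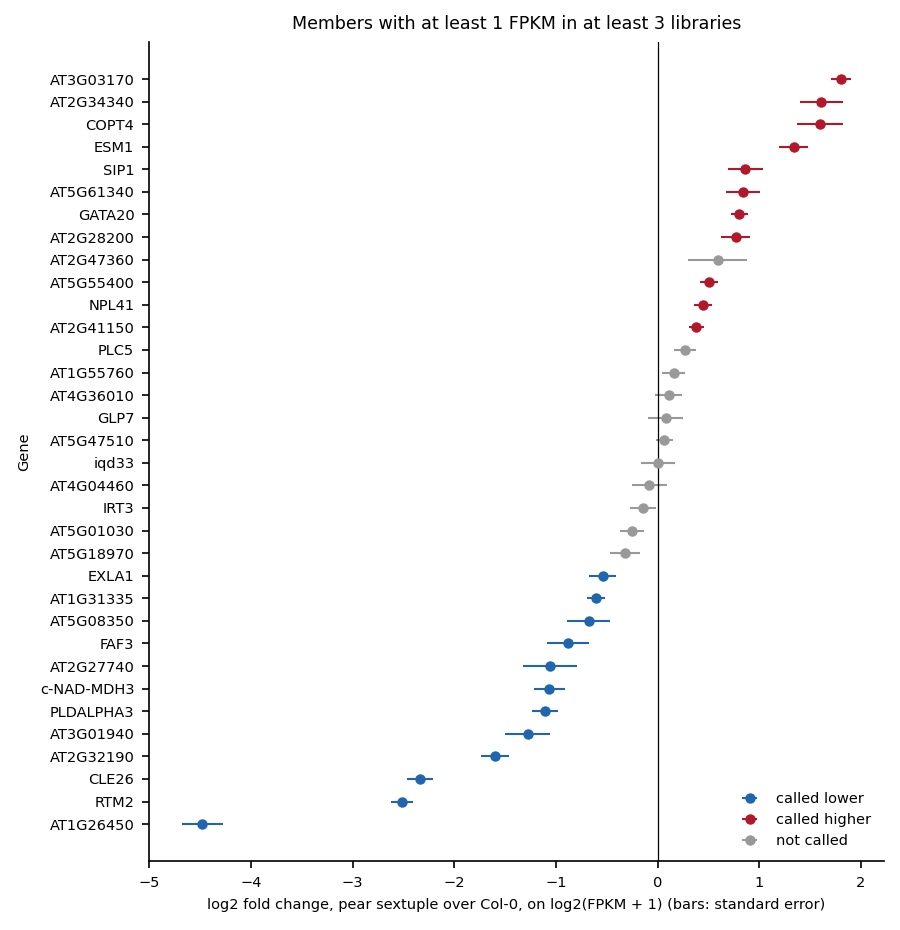
Fold change of the 34 tested members in the pear sextuple mutant over Col-0, on the log2(FPKM + 1) scale, with standard errors as bars, red for called higher, blue for called lower and grey for not called. The 23 called members run from -4.48 (AT1G26450) to 1.80 (AT3G03170).

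**Figure D4:**
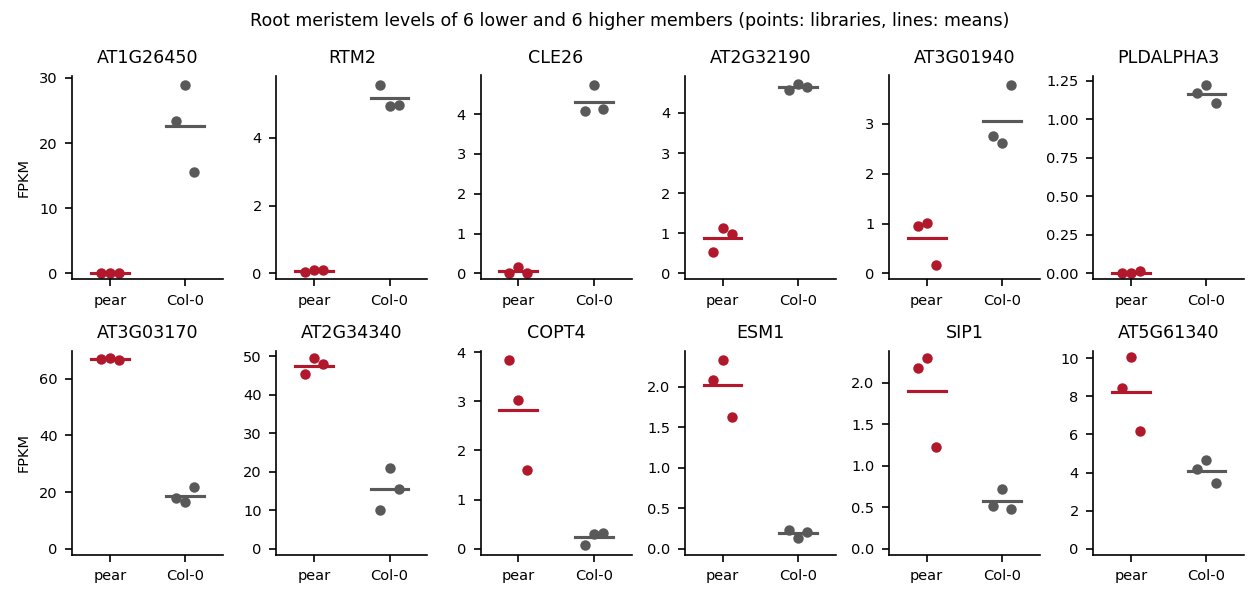
FPKM in each mutant library (left, red) and each Col-0 library (right, grey) for the 6 members that fell most and the 6 that rose most, with group means as lines and a linear axis for each gene. No library of one genotype reaches the values of the other in these 12 genes. For AT1G26450, RTM2, CLE26, PLDALPHA3, COPT4, ESM1 and SIP1 the filter fixed this, since they passed through 1 genotype alone.

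Tested members that did not pass included AT5G18970, with 5.99, 6.02 and 4.89 FPKM in the mutant, against 5.75, 8.79 and 7.52 FPKM in Col-0, and PLC5, with 3.70, 4.10 and 3.61 FPKM in the mutant, against 2.80, 3.43 and 2.78 FPKM in Col-0. IRT3, AT4G04460, iqd33, GLP7 and AT4G36010 had overlapping genotypes. The 35 members below the filter include all 5 C1 domain genes. AT3G13590 stood at 0 in each mutant library and at 0.348, 0.347 and 0.161 FPKM in Col-0, and AT5G67050 likewise stood at 0 in the mutant and had 0.645, 0.457 and 0.334 FPKM in Col-0. Of all 69 members 14 were listed at 0 in every mutant library, and 11 of these were above 0 in every Col-0 library. Every mutant library lay below every Col-0 library in 32 of the 69 members, against 12.9% of all genes in the table, and above it in 16, against 27.8%. Of the 32 members 20 were below the filter, and of the 16 members 3 were. Only 23144 of the 32678 genes had a value above 0 in any library. The rest cannot separate, so both shares of all genes are lower than they would be without them. Of the untested members, NPC4, MS2 and WRKY45 had every mutant value above every Col-0 value. For NPC4 these were 0.335, 0.386 and 0.470 FPKM in the mutant, against 0.143, 0.104 and 0.159 FPKM in Col-0. Among the other genes of the pathway, 5 of the 11 tested genes of the sieve element list were called lower and 2 higher in the mutant, and of 13 tested protophloem specification genes 2 were called lower and 7 higher, against 63.2% of all genes called (18.6% lower and 44.6% higher). The share called in both lists is near that background.

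After induction of ZAT14-like, 6 members were called higher at 10 h and none lower, and at 14 h 10 were called higher and 1 lower. Of the 69 members 38 passed the filter of the ZAT table. All genes tested were called at 13.8% at 10 h (8.96% higher) and at 12.4% at 14 h (7.89% higher and 4.49% lower). Members' fold changes had a median of 0.17 at 10 h and 0.21 at 14 h, against 0.03 and 0.00 over all 17157 genes tested. Both times were set against the same DMSO libraries, so the 2 sets of calls are not independent. In both ZAT lines all induced libraries had estradiol, and no line without a construct received it. Effects of estradiol itself and of the ZAT proteins therefore cannot be told apart, and no duration is given for DMSO. Much of the count rested on single DMSO libraries, since without ZAT14-like DMSO library 1 or 2 there were 3 or 2 calls at 10 h (2 of the 6 in either case), 6 calls at 14 h in either case, and 5 calls at 14 h without 14 h library 3. With the replicate number as a block there were 3 calls at 10 h.

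AT2G27740, annotated as a RAB6-interacting golgin, changed most. It had 1.62, 0.926 and 1.43 FPKM in DMSO libraries, 4.28, 2.13 and 1.73 FPKM at 10 h and 5.41, 6.31 and 5.14 FPKM at 14 h of ZAT14-like induction. At 14 h it rose by 1.52 ± 0.19 (SE, n = 3 each, limma adjusted p = 4.1e-05), and every 14 h value lay above every DMSO and 10 h value. AT4G36010, a thaumatin-like protein, had 7.58, 7.04 and 8.12 FPKM in DMSO libraries, 11.0, 10.3 and 9.99 FPKM at 10 h and 14.4, 15.6 and 14.9 FPKM at 14 h, with rises of 0.42 ± 0.07 (limma adjusted p = 0.0018) and 0.90 ± 0.07 (limma adjusted p = 2.9e-07). IRT3 had 17.5, 15.7 and 17.6 FPKM in DMSO libraries, 25.2, 25.5 and 24.3 FPKM at 10 h and 31.9, 29.6 and 28.5 FPKM at 14 h, with rises of 0.54 ± 0.07 (limma adjusted p = 0.00018) and 0.79 ± 0.07 (limma adjusted p = 1.2e-06). In both genes the 3 conditions did not overlap, and 14 h stood highest.

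SIP1 rose by 0.66 at 10 h and 0.76 at 14 h, AT5G64690 by 0.50 and 0.58, and AT2G34340 by 0.60 at 10 h, with 0.13 at 14 h (adjusted p = 0.61). AT2G27740 passed at 10 h too, with 0.63 ± 0.19 (limma adjusted p = 0.038). At 14 h alone, AT1G76220, AT2G32190, AT5G61340, AT5G01030 and AT1G26450 rose by 0.75, 0.72, 0.60, 0.43 and 0.43. AT1G31335 was the 1 member that fell, with 8.06, 9.005 and 8.64 FPKM at 14 h, against 11.1, 12.3 and 12.7 FPKM with DMSO (fold change -0.45 ± 0.08, limma adjusted p = 0.0011). Of these calls, the ones of AT2G27740, AT4G36010, IRT3 and AT1G31335 at 14 h and of IRT3 at 10 h held under every alternative, while each of the others was lost in at least 1.

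With ZAT14 induced, 2 members were called at 10 h, against 3.21% of all genes (1.96% higher and 1.25% lower), and 2 at 14 h, against 4.28% (2.85% higher), all of them higher. IRT3 had 17.8, 15.9 and 18.6 FPKM in DMSO libraries, 20.12, 23.6 and 22.4 FPKM at 10 h and 26.2, 25.5 and 25.4 FPKM at 14 h, with rises of 0.32 ± 0.07 (limma adjusted p = 0.021) and 0.54 ± 0.07 (limma adjusted p = 0.00027). AT4G36010 had 8.29, 7.21 and 8.81 FPKM in DMSO libraries, 8.95, 9.16 and 9.12 FPKM at 10 h and 15.5, 14.4 and 15.3 FPKM at 14 h. Its rise at 14 h was 0.82 ± 0.07 (limma adjusted p = 3.5e-06), and its 10 h value was 0.15 (adjusted p = 0.35). AT2G34340 had 7.42, 9.85 and 9.47 FPKM in DMSO libraries, 13.9, 15.1 and 12.5 FPKM at 10 h and 7.49, 9.11 and 11.4 FPKM at 14 h, with a rise of 0.58 at 10 h (limma adjusted p = 0.042). This call was lost in 9 of 12 alternatives, with adjusted p up to 0.19, while the fold change stayed between 0.47 and 0.65. The call of IRT3 at 10 h was lost in 4 of 12, with fold changes of 0.26 to 0.39. At 10 h no call was left without ZAT14 10 h library 3 or 4, and 1 was left without DMSO library 1 or 4 or with the replicate number as a block.

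The responses of the 2 lines, averaged over both times, passed the test of a difference in none of the 38 tested members, against 0.361% of all genes (0.326% higher and 0.035% lower in ZAT14-like). By limma 6 members had an unadjusted p under 0.05 and the lowest adjusted p was 0.29, for AT2G27740, whose response was 0.80 ± 0.23 higher in the ZAT14-like than in the ZAT14 line. A call in one line and not in the other is therefore not shown to be a difference between them. CLE26 had 1.71, 1.88 and 1.48 FPKM with DMSO, 1.27, 1.51 and 1.30 FPKM at 10 h and 1.07, 1.02 and 0.894 FPKM at 14 h of ZAT14-like induction (fold change at 14 h -0.43, adjusted p = 0.12). RTM2 had 4.83, 3.82 and 4.64 FPKM with DMSO, 5.72, 4.28 and 4.84 FPKM at 10 h and 6.03, 5.72 and 5.46 FPKM at 14 h (0.31 at 14 h, adjusted p = 0.058). The 31 members below the filter had group means of at most 1.07 FPKM, and AT5G50710 was listed at 0 in all 18 libraries. AT5G08350, also among the 31, had far higher values in the pear table, at 13.3 to 23.7 FPKM in Col-0.

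**Figure D5:**
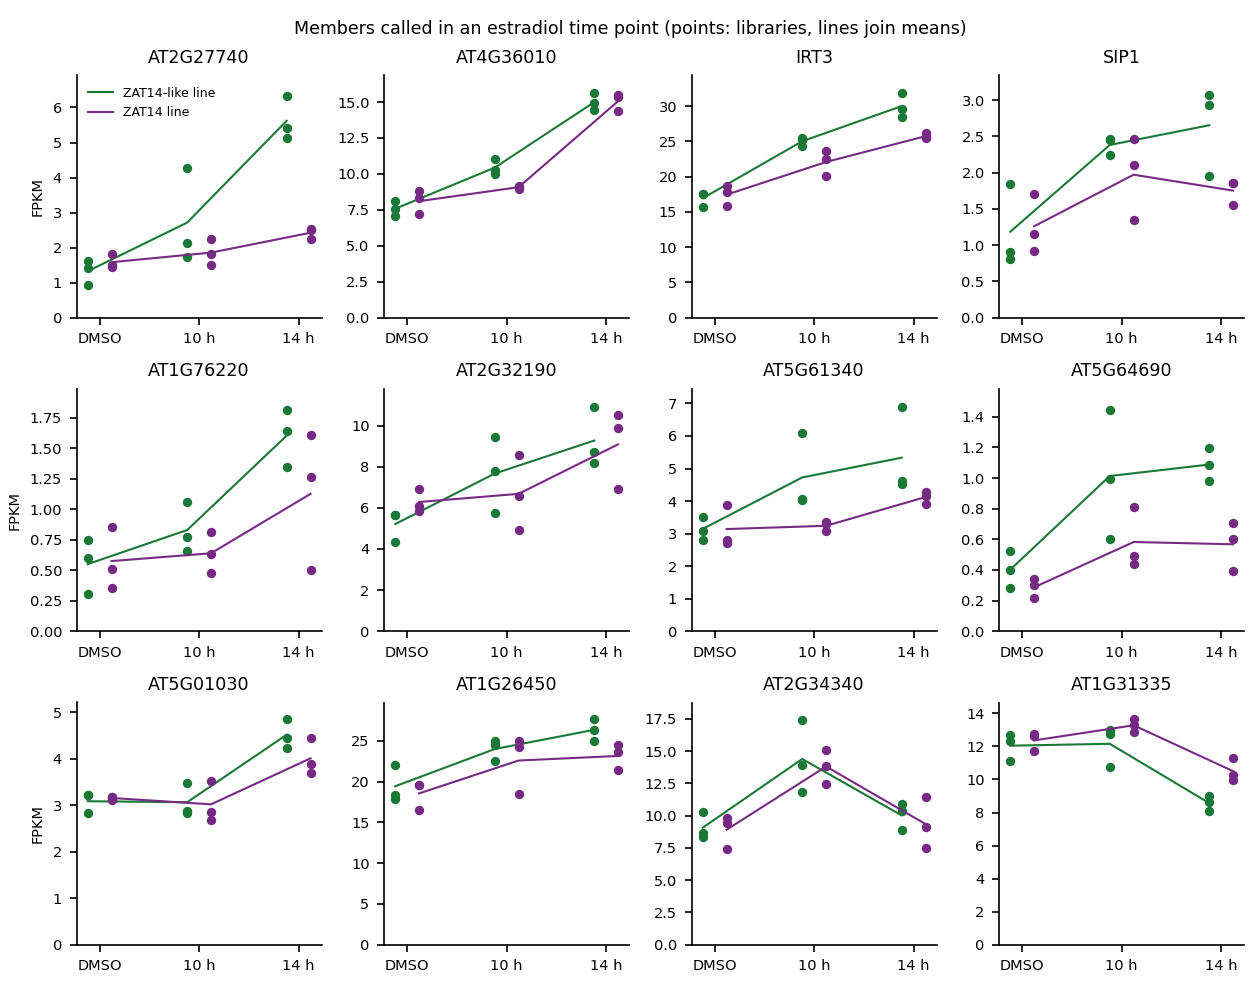
FPKM of the 12 members called in at least 1 ZAT contrast, in each library with DMSO and after 10 h and 14 h of estradiol, in green for the ZAT14-like line and purple for the ZAT14 line, with lines joining group means and axes that start at 0. IRT3 and AT4G36010 climb in both lines, AT2G27740 reaches 5.14 to 6.31 FPKM at 14 h of ZAT14-like induction, and AT2G34340 is highest at 10 h.

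Of the 12 members called in a ZAT contrast, 7 were also called in the pear mutant, where 63.2% of all tested genes were called, so nothing is read from this number. Each gene's own directions were as follows. AT1G26450, AT2G32190 and AT2G27740 were lower in the mutant and higher after 14 h of ZAT14-like induction, AT1G31335 was lower in both, and SIP1, AT5G61340 and AT2G34340 were higher in the mutant and after ZAT14-like induction. IRT3 and AT4G36010, called in both lines, had fold changes of -0.15 and 0.11 in the mutant and did not pass there. Neither filter was passed by 28 of the 69 members.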

How the data were processed

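RNA-seq libraries of root meristems and sorted protoplasts were grouped from GEO's labels. Sorted-cell values are deposited raw counts per gene, made by the authors with featureCounts on TAIR10, with Bowtie2 also named, per the submitters' processing notes. The pear and ZAT values are FPKM, scaled by the authors per library, with TopHat2, HTSeq and TAIR10 named, per the submitters' processing notes; versions are not given in the sources used here. Sorted-cell cDNA was PCR-amplified without molecular identifiers, so counts are not independent molecules, and the depth of the FPKM libraries was not used here.

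Here CPM of library totals gave the members. FPKM went into limma 3.58.1 under R 4.3.3 (trend, log2(FPKM + 1), at least 1 FPKM in at least 3 libraries), the pear table alone and the 18 ZAT libraries as 6 group means. Marker genes in the counts were tested with edgeR 4.0.16 (TMM, filterByExpr, quasi-likelihood). All tests were two-sided. A call needs a p, adjusted by Benjamini-Hochberg over all genes tested, of less than 0.05. The steps were run on simulated data with the same spread for all genes and large changes set into well-counted genes. This does not show how they perform at the spread of these libraries. Nothing in the labels names separate cultures per library, so the p-values speak for the variation among these libraries, possibly technical. The members, lists and tests were chosen with earlier results of these data known. By rule the text names the 15 lowest sorted-cell differences, the 10 highest DMSO levels, up to 8 called rises and 8 falls in the pear table and 6 of each per ZAT contrast, members of families and marker lists, the 3 genes next to each threshold and up to 4 called genes per list; other members were named after their values were seen. Names and coordinates came from TAIR10.1, which matched 32835 of 33602, 31912 of 32678 and 32548 of 34218 genes of the sorted-cell, pear and ZAT files. No 2 libraries held identical values. Alternatives were another pseudocount, filter, scaling, tool or DMSO minimum, leaving out libraries, fewer groups in a fit and the replicate number as a block; leaving out the 3 ZAT libraries numbered 2 together was chosen after seeing the data.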

Additional observations from a re-analysis of the deposited data

How the results depend on the processing

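The number of genes meeting the sorted-cell rule was 69 with library totals, 205 with TMM-scaled totals, 190 with DESeq2 size factors and 34 to 110 when a library was left out. Of members called, the pear count was 23, 41 without a filter and 16 to 20 without a library, where the filter itself removed genes that had passed through the reduced group. For ZAT14-like at 10 h it was 6, with 3 under the replicate block, 1 with the compared groups only, 2 without the 3 libraries numbered 2 and 2 to 8 without a library. At 14 h it was 11, with 6 without the 3 libraries numbered 2 and 5 to 12 without a library. For ZAT14 at 10 h it was 2, with 1 of them left without a filter and under the replicate block, and 0 to 2 calls without a library. With the compared groups only neither was left, and the 1 call was of another member, lower. At ZAT14 14 h it was 2 and for the line difference 0 under every alternative. List genes called in sorted cells were 4 by edgeR, 26 by DESeq2, 9 without a filter, 19 under the replicate block and 0 to 18 without a library. Of 44 single-gene calls, 28 held under every alternative run and 16 were lost in at least 1, and none changed sign. The cause was not tested. The 28 include the 7 pear calls that passed the filter only through Col-0 and the 3 that passed only through the mutant. Each of these was run under 7 alternatives, against 10 for the other pear calls. Without a library of their higher genotype the filter removed them, which is not counted as a loss. Groups shared only 2 replicate numbers and the labels do not pair them: deviations of same-numbered libraries correlated at 0.27 and 0.17 in sorted cells, 0.25 and 0.36 in the pear table and -0.16 to 0.42 in the ZAT table. Low FPKM limits what can be said of the 28 members under both filters.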
